A study of Mus musculus with 4 samples.

Results

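The 9 genes Ngp, Camp, Ltf, Lcn2, Cd177, Wfdc21, Mmp8, Mmp9 and Retnlg encode granule and secreted proteins of neutrophils. They were taken by symbol, and all 9 were found among the 32287 features of each library. Their transcripts were counted in 968 barcodes gated as neutrophils, out of 15439 kept barcodes, and in the other blood cells. The gate asked for at least 2 UMIs (unique molecular identifiers, 1 per captured RNA molecule) of Csf3r, the receptor for the growth factor G-CSF, and Cxcr2, a chemokine receptor of mature neutrophils, summed. It used no granule gene.

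The libraries came from peripheral blood leukocytes of C57BL/6J mice, 10 weeks old, that carried acute lymphoblastic leukaemia and received dasatinib, a tyrosine kinase inhibitor. The blood was taken after 1 week of the drug, with all animals in remission, and 4 further weeks of treatment followed. Outcome at day 100 gave the groups, Relapsed (6 mice) and Cured (6 mice), so the groups share strain, leukaemia and drug and differ in a later outcome. Frozen and thawed cells, sorted as live, were pooled from 3 mice per library for 10x Genomics 5′ sequencing, which left 2 Relapsed and 2 Cured libraries. A cell cannot be traced to its mouse in these tables, so the pool is the replicate, and n = 2 pools per group throughout.

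Neutrophils make their granules one kind after another as they mature in the bone marrow. Primary (azurophil) granule genes are transcribed in promyelocytes, specific (secondary) granule genes in myelocytes and metamyelocytes, and gelatinase (tertiary) granule genes in band cells. Each set is largely shut off before the cell enters the blood, while proteins made earlier stay stored in the granules, so the transcripts still present mark the stage of a cell. Ngp (neutrophilic granule protein), Camp (cathelicidin, an antimicrobial peptide) and Ltf (lactoferrin, which binds iron) belong to the specific granule set. Lcn2 (lipocalin 2, which binds bacterial siderophores), Cd177 (a surface protein also held in granules) and Mmp8 (neutrophil collagenase) are also counted with it. Wfdc21 encodes a small secreted protein with a whey acidic protein domain, Mmp9 is gelatinase B of the gelatinase granules, and Retnlg (resistin-like gamma) is a secreted protein typical of mouse blood neutrophils.

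On GRCm38 (GENCODE M21) 4 of the 9 genes lie on chromosome 9. Ngp spans 110419747 to 110423012 and Camp spans 109847379 to 109849617. Ltf spans 111019271 to 111042767 and Mmp8 spans 7558456 to 7568485 on the same chromosome. Lcn2 lies on chromosome 2 from 32384633 to 32388252, and Mmp9 on the same chromosome from 164940780 to 164955850. Cd177 lies on chromosome 7 (24743983 to 24760311), Wfdc21 on chromosome 11 (83746940 to 83752642) and Retnlg on chromosome 16 (48872621 to 48874496). No exon of any of them overlapped an exon of another annotated gene on either strand.

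RefSeq promoter sequence (GRCm38.p6, the 250 bases before the start) was at hand for 7 of the 9 genes. These were searched on both strands for 2 short motifs of the myeloid factors that act on granule genes. The C/EBP core TTNNGCAA was found in 5 of 7 (Ngp, Ltf, Lcn2, Mmp8 and Retnlg), against 9.56% of the 32851 promoters in the table. The PU.1 core GAGGAA was found in 4 of 7 (Ltf, Lcn2, Cd177 and Mmp8), against 23.3% of those promoters. Both counts are of the uncut 250 bases before the RefSeq start. For Lcn2 these (chr2:32387740-32387989) lie wholly inside the gene of GENCODE M21. The sequences below belong to the 3 genes that shared the same few cells and to 2 genes spread over many, Mmp8 and Retnlg. Each is cut where the gene of GENCODE M21 begins, if that comes first, and capitals mark C/EBP matches, which do not overlap a PU.1 match.
Ngp (chr9:110419558-110419746, plus strand, 189 bases): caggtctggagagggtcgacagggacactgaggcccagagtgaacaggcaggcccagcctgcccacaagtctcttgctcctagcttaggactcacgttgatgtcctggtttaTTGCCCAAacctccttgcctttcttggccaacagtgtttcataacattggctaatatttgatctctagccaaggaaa
Camp (chr9:109849618-109849706, minus strand, 89 bases): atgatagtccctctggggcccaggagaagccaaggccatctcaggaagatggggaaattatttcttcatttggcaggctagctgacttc
Ltf (chr9:111019042-111019270, plus strand, 229 bases): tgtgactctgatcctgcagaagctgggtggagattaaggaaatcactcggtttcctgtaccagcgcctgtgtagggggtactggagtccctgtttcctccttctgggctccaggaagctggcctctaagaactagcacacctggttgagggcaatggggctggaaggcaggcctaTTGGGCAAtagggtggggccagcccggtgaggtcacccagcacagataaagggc
Mmp8 (chr9:7558179-7558428, plus strand, 250 bases): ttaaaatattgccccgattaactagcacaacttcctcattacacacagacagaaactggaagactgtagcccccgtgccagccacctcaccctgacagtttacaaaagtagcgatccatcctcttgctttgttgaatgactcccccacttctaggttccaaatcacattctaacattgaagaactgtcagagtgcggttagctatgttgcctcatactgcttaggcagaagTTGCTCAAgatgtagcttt
Retnlg (chr16:48872358-48872607, plus strand, 250 bases): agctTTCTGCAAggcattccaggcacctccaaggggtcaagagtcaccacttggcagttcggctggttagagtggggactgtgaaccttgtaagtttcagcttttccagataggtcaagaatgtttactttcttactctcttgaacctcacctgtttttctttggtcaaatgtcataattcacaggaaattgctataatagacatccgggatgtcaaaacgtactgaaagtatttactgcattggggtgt
The printed stretches of Ngp, Ltf, Mmp8 and Retnlg hold 1 match each, TTGCCCAA, TTGGGCAA, TTGCTCAA and TTCTGCAA, and that of Camp holds none. A match is a run of letters and was not tested as a binding site.

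The libraries held 3631 and 4383 barcodes in Relapsed replicates 1 and 2, and 3859 and 4284 in Cured replicates 1 and 2, with 7184045 to 10840397 UMIs each. Pairs of libraries had 20 to 29 barcode sequences in common. Gated neutrophils numbered 390 and 164 in Relapsed and 209 and 205 in Cured libraries, 12.0% and 3.84% of kept barcodes against 5.53% and 4.96%. The Relapsed pools lay on either side of both Cured pools. The mean share was 7.92% ± 5.76 in Relapsed and 5.24% ± 0.405 in Cured (SD, n = 2 each; log2 ratio 0.59, exact two-sided permutation p = 1, where 2 against 2 cannot go below 0.333), and without Relapsed replicate 1 the log2 ratio was -0.45. The label was checked against 9 markers outside the gate, S100a8, S100a9, Hdc, Il1r2, Trem1, Clec4d, G0s2, Ly6g and Stfa2l1. UMIs of these summed were found in 97.6% to 99.7% of gated barcodes, with S100a8 and S100a9, the calprotectin subunits, as the most abundant. The other markers were each found in fewer, from 9.57% (Ly6g, Cured replicate 1) to 73.3% (Hdc, Relapsed replicate 1). The summed markers were also found in 4.72% to 13.2% of gated B cells. UMIs of the 4 B cell gate genes were found in 11.6% to 20.1% of gated barcodes and those of 6 monocyte markers in 22.0% to 35.6%, while the 4 basophil or mast cell markers were at 0 in every library. Their part in the results was not tested beyond leaving such barcodes out. Median depth of gated neutrophils was 1013.5 and 1013 UMIs in Relapsed and 1040 and 1238 UMIs in Cured libraries, below that of B cells (1870 and 2043 against 2240 and 2355).

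Retnlg was the member with the highest level in every library. Gated neutrophils held 4892 and 2626 Retnlg UMIs in Relapsed and 2917 and 2705 in Cured libraries. Per cell, 83.6% and 87.2% of Relapsed and 87.6% and 80.5% of Cured gated neutrophils had a Retnlg UMI, with medians of 6 and 7 UMIs per cell in Relapsed and 6 and 6 in Cured. Retnlg was thus found in most gated neutrophils of each pool, and the groups overlapped.

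Mmp9, Wfdc21 and Lcn2 followed, each found in about as many cells of one pool as of the next. Mmp9 was detected in 64.1% and 65.9% of Relapsed and 64.6% and 71.7% of Cured gated neutrophils. Wfdc21 was detected in 60.8% and 56.7% of Relapsed against 53.1% and 59.5% of Cured cells, and Lcn2 in 48.7% and 49.4% against 46.4% and 51.2%. For all 3 genes the ranges of the groups overlapped. Mmp8 was found in fewer cells, 24.6% and 28.0% in Relapsed and 29.2% and 27.3% in Cured libraries, again with overlap.

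Cd177 was rare, with 23 and 13 UMIs in Relapsed and 24 and 34 UMIs in Cured gated neutrophils. It was detected in 4.62% and 3.05% of Relapsed and 5.74% and 6.83% of Cured cells, so both Relapsed pools lay below both Cured pools. The exact 95% Clopper-Pearson intervals, which cover counting error only, overlapped (0.997% to 6.97% for Relapsed replicate 2 and 3.78% to 11.2% for Cured replicate 2).

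The 3 specific granule genes Ngp, Camp and Ltf had a different shape, with many UMIs in few cells. Ngp was detected in 3.08% and 2.44% of Relapsed and 3.83% and 5.37% of Cured gated neutrophils, yet summed to 79 and 414 UMIs in Relapsed and 647 and 553 UMIs in Cured. Camp was detected in 3 and 4 Relapsed and in 3 and 3 Cured cells, with 37 and 335 UMIs against 289 and 369 UMIs. Ltf was detected in 3 and 2 Relapsed and in 3 and 2 Cured cells, with 7 and 93 UMIs against 86 and 92 UMIs. Relapsed replicate 1, the pool with the most gated neutrophils, had the fewest UMIs of each of these 3 genes. In the other 3 pools the 3 cells with most UMIs held 98.6% or more of the Ngp UMIs of the gate.

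Shares of cells with a UMI depend on depth, so each cell was thinned to 500 UMIs, the least any barcode held, and none was left out for depth. Retnlg was then detected in 75.6% and 76.8% of Relapsed and 82.3% and 71.2% of Cured gated neutrophils, and Mmp9 in 41.0% and 47.0% against 42.1% and 42.9%. Cd177 was detected in 1.28% and 1.22% of Relapsed and 2.39% and 4.39% of Cured cells, and Ngp in 1.54% and 2.44% against 1.91% and 2.44%. The order of the members by detection in the mean of the libraries, from Retnlg over Mmp9, Wfdc21, Lcn2 and Mmp8 down, was the same with and without thinning.

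**Figure D1:**
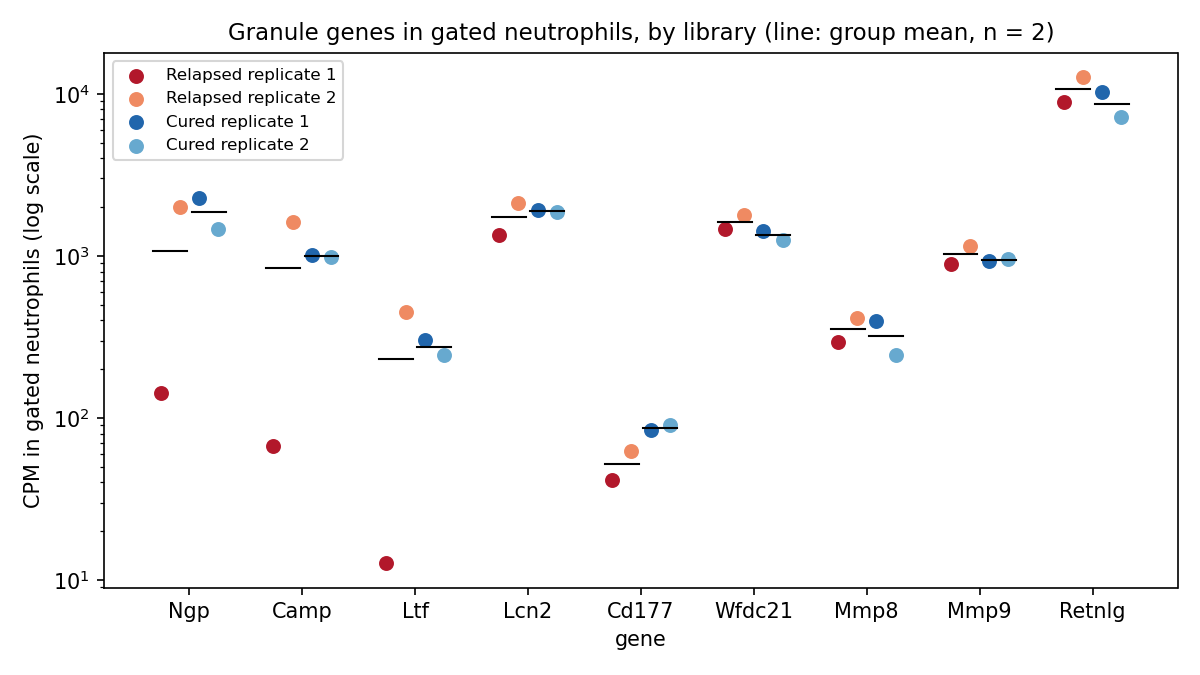
CPM (UMIs of the gene scaled to the UMIs of the class, log axis) of the 9 genes in gated neutrophils, with 1 point per library, Relapsed left of Cured, and a line at each group mean (n = 2). Relapsed replicate 1 stands low for Ngp, Camp and Ltf, at 143, 67 and 12.7 CPM, while Retnlg stays between 7164 and 12630 CPM in all 4 libraries.

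As CPM, which scales to the class total with TMM factors and not to transcript length since each molecule is counted once at its 5′ end, the levels over the 4 libraries fell into steps. Retnlg stood at 7164 to 12630 CPM, above all other members. Lcn2 (1344 to 2126 CPM) and Wfdc21 (1247 to 1784 CPM) overlapped, and Mmp9 (894 to 1154 CPM) lay below both. Mmp8 came next at 244 to 414 CPM, and Cd177 was lower still at 41.6 to 90.0 CPM, and the 3 cells with most UMIs held 26.1% and 84.6% of it in Relapsed and 62.5% and 64.7% in Cured gated neutrophils. Ngp (143 to 2270 CPM), Camp (67 to 1611 CPM) and Ltf (12.7 to 447 CPM) spanned so wide a range that their place in the order could not be told from that of their neighbours.

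How much of each gene lay inside the gate differed between members and, for the specific granule trio, between pools. Over all kept barcodes of the 4 libraries, the gate held 36.2% of Ngp, 32.2% of Camp and 32.7% of Ltf UMIs, against 82.0% of Mmp9 and 80.3% of Retnlg UMIs. It held 69.9% of Mmp8, 69.3% of Wfdc21, 58.4% of Lcn2 and 42.5% of Cd177 UMIs. By library the gate held 19.3% and 20.7% of Ngp UMIs in Relapsed and 59.4% and 47.1% in Cured libraries, 16.2% and 20.05% against 52.9% and 49.3% of Camp, and 8.75% and 26.5% against 52.8% and 35.9% of Ltf. Both Relapsed pools lay below both Cured pools for all 3 genes, and in Cured replicate 1 most of the trio was inside the gate. The 3 genes sat in the same few barcodes, so they are not separate observations, and how many of all genes had such an order was not counted. In the class sums compared further on, the gate thus left out a larger share of the trio in Relapsed than in Cured pools. The trio was concentrated in 34 barcodes with at least 10 UMIs of Ngp, Camp and Ltf summed, a limit set after the values were seen and called granule-rich below. They numbered 6 and 7 in Relapsed and 14 and 7 in Cured libraries, of which 1 and 2 against 3 and 2 passed the gate. These 34 barcodes held 97.9% of all Ngp, 99.1% of Camp and 98.6% of Ltf UMIs, which their choice fixes in part. They also held 50.7% of Cd177, 46.3% of Lcn2, 27.0% of Wfdc21, 19% of Mmp8, 8.51% of Mmp9 and 6.44% of Retnlg UMIs, none of which was used to choose them. These shares differed between pools. For Lcn2 they were 15.8% and 69.2% in Relapsed and 49.8% and 44.0% in Cured libraries, and for Cd177 25% and 54.1% against 65.1% and 56.5%. The order of Lcn2 and Cd177 was reversed in Relapsed replicate 2, and in Relapsed replicate 1 those of Wfdc21 and Mmp8 and of Mmp9 and Retnlg were. In each library the trio was at 90.5% or more, and Retnlg at 8.12% or less.

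**Figure D2:**
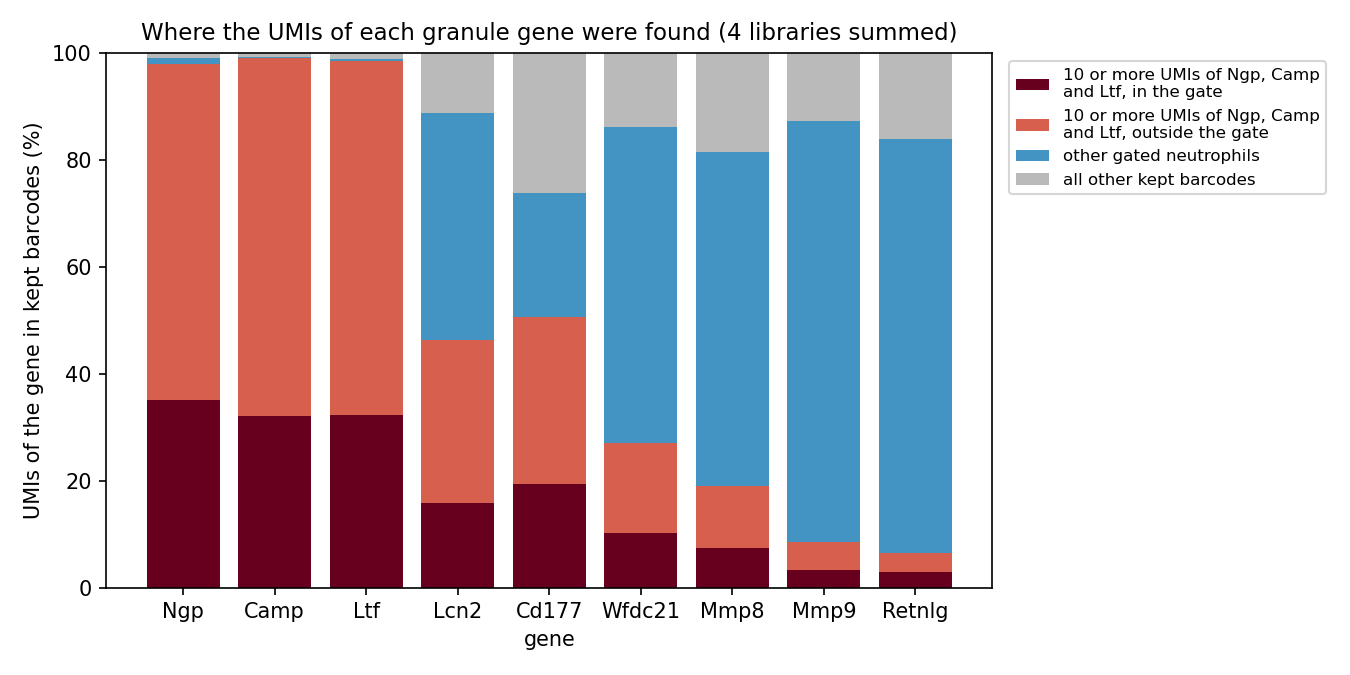
Share of each gene's UMIs in kept barcodes (%, 4 libraries summed) found in the granule-rich barcodes inside and outside the neutrophil gate, in the other 960 gated neutrophils and in all other kept barcodes. The granule-rich share runs from 99.1% for Camp to 6.44% for Retnlg.

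The granule-rich barcodes were of more than 1 kind. Of the 34, 8 passed the neutrophil gate, 19 passed no gate, 4 passed the B cell gate, and 1 each passed the T cell, NK cell and monocyte gates. Cxcr2 was at 0 in 27, Csf3r had a UMI in 12, and 19 had neither gate gene. They held 672 to 9660 UMIs (median 2157). In Cured replicate 1, 10 of the 14 also reached a lymphocyte marker sum, and 9 of these 10 held 13 to 46 UMIs of the trio. In the other 3 libraries 1 of 20 did so. The cells without such sums numbered 6 and 6 in Relapsed and 4 and 7 in Cured libraries. Just under the limit, 3 barcodes of Relapsed replicate 1 held 5 to 9 trio UMIs, and no barcode of the other libraries did. Just above it, the lowest held 13.

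**Figure D3:**
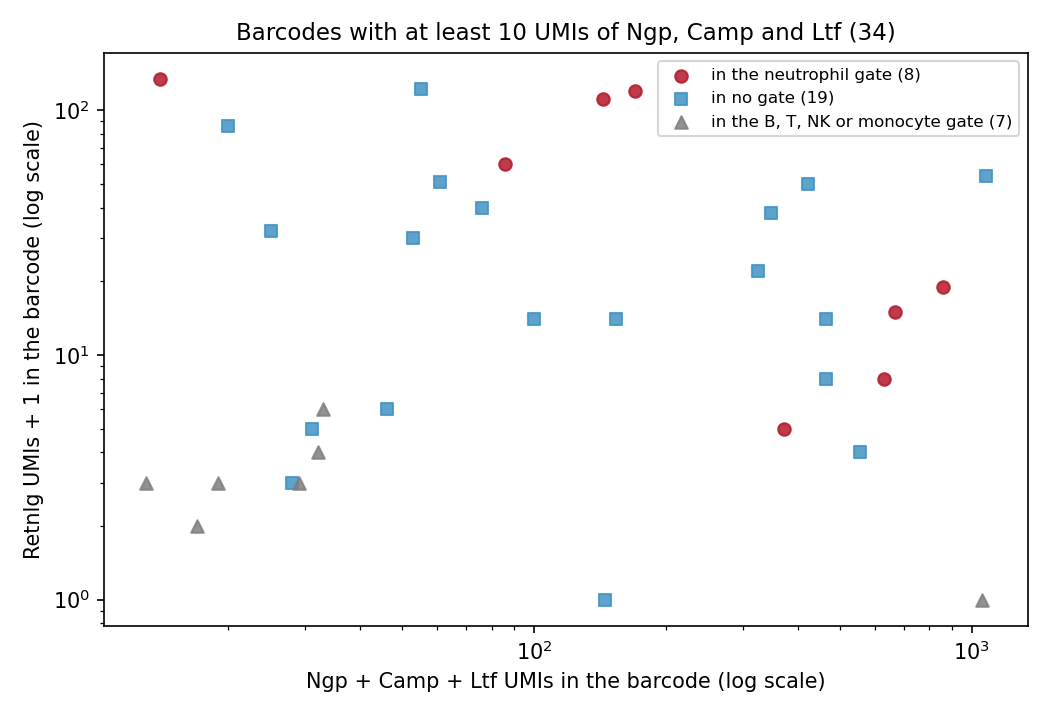
Retnlg UMIs + 1 (log axis) against the summed UMIs of Ngp, Camp and Ltf (log axis) in the 34 granule-rich barcodes, marked by gate. The 7 barcodes in the B, T, NK or monocyte gate hold 0 to 5 Retnlg UMIs, and the highest Retnlg count, 133 UMIs, stands at 14 UMIs of the trio.

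Examples show the range within a library. In Relapsed replicate 2 the barcode with most trio UMIs held 554 Ngp, 389 Camp and 132 Ltf UMIs of 9295 in all, with 53 of Retnlg and none of Csf3r or Cxcr2. Another in that pool, inside the gate, held 95 Ngp, 60 Camp and 15 Ltf UMIs with 119 of Retnlg. In Cured replicate 2 a barcode in the gate held 473 Ngp, 315 Camp and 70 Ltf UMIs with 18 of Retnlg, and another held 69, 53 and 22 of the trio with 110 of Retnlg. In these examples the barcode with more trio UMIs held fewer Retnlg UMIs than the other of its pool. Each still held more Retnlg UMIs than the median gated neutrophil, at 7 in Relapsed replicate 2 and 6 in Cured replicate 2. Their total UMIs differed.

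The 23 granule-rich cells without lymphocyte marker sums were set beside the other 960 gated neutrophils as a description with no test, and the genes named were picked from the lists after their values were seen. The 6 cells of Relapsed replicate 2 include the monocyte-gated barcode, with 9660 UMIs, 3 of them of monocyte gate genes and 0 of Retnlg. Its part in the values of that pool was not tested. Of the 3588 genes tested in neutrophils, 3.18% were higher and 43.3% lower in the granule-rich cells of all 4 pools. Of 12 specific granule genes besides the members, 8 were higher in all 4 pools, 1 (Olfm4, at 0 in the granule-rich cells) was lower in all 4, and 3 were neither, among them Hp, which was lower in 3. Levels are CPM over the cells compared, with no TMM factor. S100a8 and S100a9 took a larger share of the UMIs in the granule-rich cells, which lowers the CPM of other genes there. The part of this in the counts of genes higher or lower was not tested. Chil3, a chitinase-like protein, stood at 769 and 3276 CPM in Relapsed granule-rich cells and 1250 and 2916 in Cured ones, against 92.7 and 5.07 in the other Relapsed and 7.05 and 45.5 in the other Cured gated neutrophils. Cybb, the catalytic subunit of the NADPH oxidase, stood at 1110 and 1033 in Relapsed and 1029 and 2037 in Cured granule-rich cells, against 149 and 111 in the other Relapsed and 116 and 248 in the other Cured cells. Chil3 and Cybb are 2 of the 8. Ly6g, the surface marker of mouse neutrophils, stood at 1366 and 1977 in Relapsed and 2352 and 1574 in Cured granule-rich cells, against 107 and 132 in the other Relapsed and 70.5 and 131 in the other Cured cells. S100a8 reached 196670 and 205224 CPM in Relapsed and 190298 and 191464 in Cured granule-rich cells, against 59824 to 71376 in the rest. S100a9 stood at 174915 to 195663 in the granule-rich cells, against 61672 to 79174 in the rest. Both calprotectin genes were thus higher in the granule-rich cells of each pool.

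Of 12 mature blood neutrophil genes, 9 were lower in the granule-rich cells of all 4 pools, against 43.3% of all genes, and none was higher in all 4. The other 3 were Trem1 and Clec4e, lower in 3 pools, and G0s2, higher in 3. The other gated neutrophils had all passed the gate on Csf3r and Cxcr2, a receptor of mature neutrophils, while 8 of the 34 granule-rich barcodes had. Among the 8 is a Cured replicate 1 barcode with 22 B cell marker UMIs, which is not one of the 23 cells compared. The choice of cells thus fixes part of a difference in maturity genes, and how large a part was not tested. Il1b, the cytokine interleukin 1 beta, stood at 85.4 and 29.5 CPM in Relapsed and at 0 in both Cured sets of granule-rich cells, against 3445 to 3831 in the other gated neutrophils. Of 10 gelatinase granule and late genes, 4 were lower in all 4 pools, 1 (Fpr2, a formyl peptide receptor) was higher in all 4, and 5 were neither. Among the 4, Ccl6, a chemokine, was at 294 CPM or less, against 2753 to 4890. Of 8 cell cycle genes, 0 were higher and 2 lower in all 4 pools, and 6 were neither. Mki67 and Top2a were at 0 in all 23 cells, but they were near 0 among all gated neutrophils as well. Those held 2 and 0 Mki67 UMIs in Relapsed and 0 and 1 in Cured pools, and 1 and 0 against 0 and 3 of Top2a. Their absence from 23 cells is thus no measure of proliferation. None of the 34 barcodes held a UMI of the primary granule genes Mpo, Elane, Prtn3, Ctsg and Ms4a3. Retnlg itself showed no single direction, with 22118 and 6729 in Relapsed and 20140 and 9906 in Cured granule-rich cells, against 8787 and 12632 in the other Relapsed and 9776 and 7332 in the other Cured cells.

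Outside the granule-rich barcodes the trio was nearly silent in the gate. The other 960 gated neutrophils held 49 Ngp UMIs in 27 cells, 7 Camp UMIs in 5 cells and 3 Ltf UMIs in 2 cells. Lcn2 was detected in 465 of them, Wfdc21 in 555, Mmp8 in 252, Cd177 in 42, Mmp9 in 632 and Retnlg in 809. A gated neutrophil carried a median of 3 of the 9 genes in each library, and 4.62% and 3.05% of Relapsed and 5.26% and 5.85% of Cured cells carried none.

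Across gated neutrophils, thinned to 500 UMIs, the within-library Pearson correlation of log counts, averaged over 4 libraries, was 0.97 between Camp and Ltf, 0.92 between Ngp and Camp and 0.90 between Ngp and Ltf. Few gated cells beyond the 8 granule-rich ones had UMIs of these genes, and cells of 1 library share its preparation. Retnlg correlated with Wfdc21 at 0.30, with Lcn2 at 0.27 and with Mmp8 at 0.25. Among 848 genes detected in at least 5% of gated neutrophils in every library, those most like the trio were Ifitm6 (0.25), Anxa1 (0.24), Lyz2 (0.18), S100a8 (0.13) and Bbip1 (0.12). The genes most like Retnlg were S100a9 (0.56), S100a8 (0.54), S100a6 (0.42), S100a11 (0.32) and Ccl6 (0.27). The first 4 of these are S100 calcium-binding protein genes. S100a9 ranged from 0.55 to 0.57 between libraries, and Ccl6 from 0.17 to 0.38.

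Detection of some members changed across the gate limit, and these values are given with no test. Barcodes with 1 UMI of Csf3r and Cxcr2, just outside it, had a Retnlg UMI in 48.7% and 36.8% of Relapsed and 60.9% and 38.2% of Cured cases, and those with 2, just inside, in 76.3% and 84.1% of Relapsed and 84.6% and 68.9% of Cured cases. Mmp9 was found in 34.2% and 29.8% of Relapsed and 39.1% and 29.1% of Cured barcodes with 1 UMI, and in 59.3% and 56.8% against 61.5% and 62.2% of those with 2. Ngp showed no such step, at 2.63% and 1.75% in Relapsed and 4.69% and 7.27% in Cured barcodes with 1 UMI and 0% and 6.82% against 7.69% and 2.22% with 2.

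**Figure D4:**
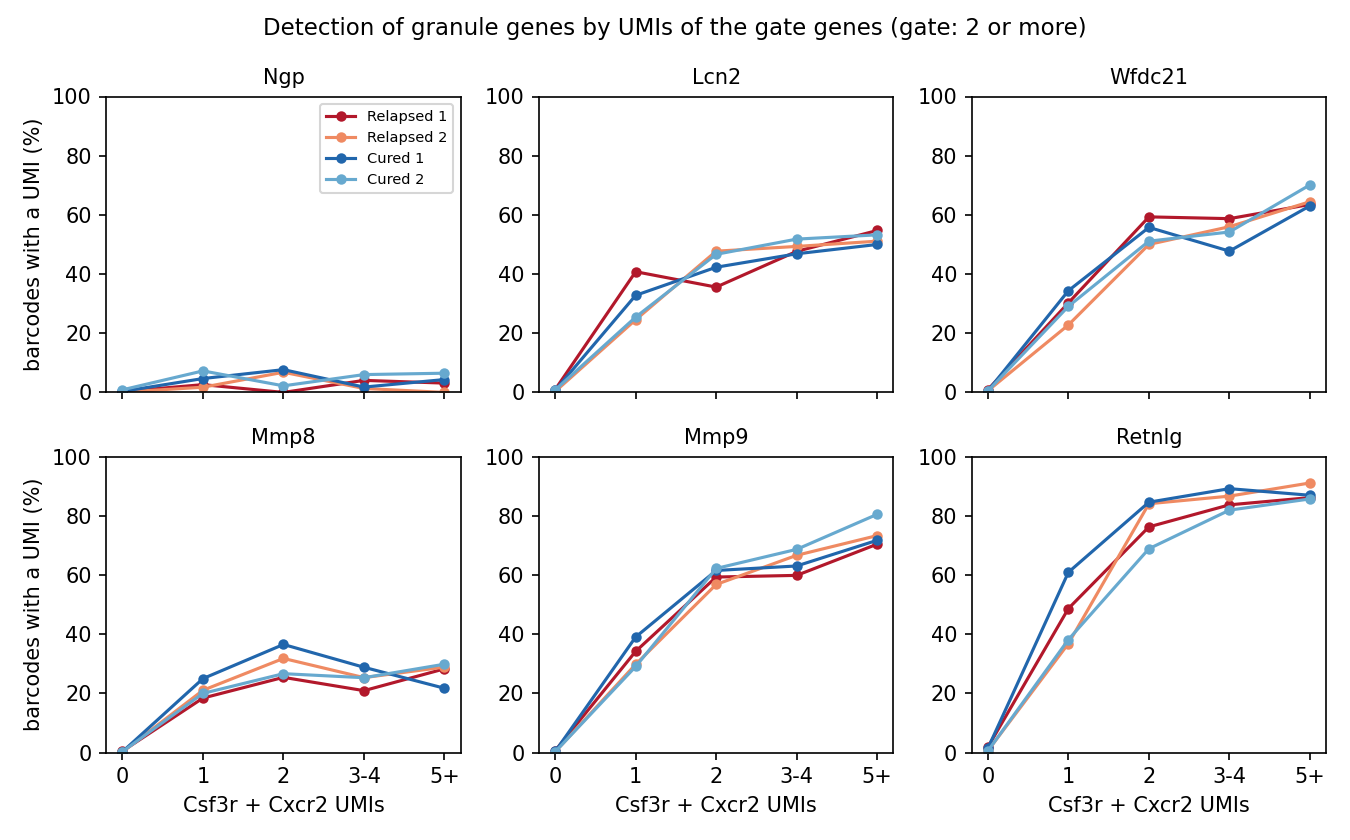
Share of kept barcodes with a UMI of 6 of the genes (%), by the summed UMIs of Csf3r and Cxcr2 in the barcode, with 1 line per library. Retnlg and Mmp9 climb steeply between 0 and 2 gate UMIs in every library, while Ngp stays below 8% at each level.

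Relapsed and Cured neutrophils were then compared, which asks whether granule transcripts early in treatment differed with later outcome. In bulk sums of a class, fewer cells with a transcript and less transcript per cell cannot be told apart. The quasi-likelihood test of edgeR on summed counts, adjusted over 3588 genes, called 0 of the 9 members, and it called 0.0279% of all genes tested (1 gene, 187 at an unadjusted p under 0.05). DESeq2 called none of them. In this test 33.7% of all genes had groups that did not overlap.

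Cd177 averaged 52.1 ± 14.8 CPM in Relapsed and 87.1 ± 4.13 CPM in Cured (SD, n = 2 each), a log2 fold change of -0.86 (SE 0.37, unadjusted p = 0.0243, adjusted p = 0.884 by edgeR). Wfdc21 averaged 1619 ± 234 CPM in Relapsed and 1336 ± 125 CPM in Cured (log2 fold change 0.26, SE 0.26, adjusted p = 0.979 by edgeR). For these 2 members alone the Relapsed and Cured libraries did not overlap, and neither passed the test.

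Retnlg averaged 10744 ± 2667 CPM in Relapsed and 8699 ± 2171 CPM in Cured (log2 fold change 0.30, SE 0.28). Lcn2 averaged 1735 ± 553 against 1889 ± 53.0 CPM (-0.14, SE 0.27), Mmp9 1024 ± 184 against 939.8 ± 19.2 CPM (0.10, SE 0.26) and Mmp8 353 ± 85.1 against 320 ± 108 CPM (0.12, SE 0.26). The differences of all 4 were about as large as their standard errors or smaller.

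Ngp averaged 1067 ± 1307 CPM in Relapsed and 1867 ± 570 CPM in Cured (log2 fold change -0.83, SE 1.63), Camp 839 ± 1092 against 996 ± 26.0 CPM (-0.30, SE 1.83) and Ltf 230 ± 307 against 273 ± 41.1 CPM (-0.48, SE 1.89). For the trio the spread between the 2 Relapsed pools exceeded the difference between groups. Without Relapsed replicate 2 all 3 passed the test, at -3.73, -3.92 and -4.42, and without Relapsed replicate 1 all 3 changed sign, at 0.12, 0.71 and 0.74. Their values thus turned on which pool stood for the Relapsed group. With the granule-rich cells left out, none of the trio had enough counts to be tested, and 0 of the other 6 members was called.

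Related genes on listed sets gave no call between Relapsed and Cured either. Of 12 other specific granule genes 7 were tested and 0 called (median log2 fold change -0.13, with -0.02 over all 3588 genes), among them Lyz2, lysozyme (-0.16, SE 0.26), and Pglyrp1, a peptidoglycan-binding protein (-0.02, SE 0.26). Of 10 gelatinase granule and late genes 9 were tested and 0 called (median 0.06), among them Ccl6 (0.06, SE 0.28) and Slpi, a protease inhibitor (0.06, SE 0.27). Of 12 mature neutrophil genes all 12 were tested and 0 called (median 0.06), among them Msrb1, a methionine sulfoxide reductase (0.09, SE 0.27), and Il1b (-0.03, SE 0.26). S100a8 (-0.01, SE 0.27) and S100a9 (0.08, SE 0.28) stood for 4 cytosolic and surface genes, of which 0 was called. The 3 tested of 8 cell cycle genes gave 0 calls (median -0.92), among them Tubb5, a beta tubulin (-0.92, SE 0.34), and Cks2, a kinase subunit (-0.06, SE 0.26). None of the 5 primary granule genes reached the count filter, and Prtn3, the serine protease proteinase 3, had the highest level of them at 8.80 CPM.

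All 9 members were higher in gated neutrophils than in gated B cells, the largest class, a comparison that sets the level in neutrophils against the RNA that reaches unrelated cells. The gates used genes outside the list. By edgeR with the library as a block, 9 of 9 were called higher, where 24.6% of 9171 genes were. Mmp9, Cd177, Mmp8, Camp and Ltf had too few counts to be tested within B cells, so they entered this comparison through their neutrophil counts. The 9 were also listed as neutrophil genes, so the calls were largely set in advance and the sizes are a description. Mmp9 stood at 922 and 1098 CPM in Relapsed and 947 and 972 CPM in Cured neutrophils, against 0.662 and 0 CPM in Relapsed and 0 and 0.506 CPM in Cured B cells (log2 fold change 11.75, SE 0.25, adjusted p = 1.44e-53 by edgeR). Retnlg stood at 9128 and 12014 CPM in Relapsed and 10462 and 7300 CPM in Cured neutrophils, against 6.40 and 7.96 CPM in Relapsed and 4.35 and 6.20 CPM in Cured B cells (10.67, SE 0.21). The other log2 fold changes were 10.19 for Mmp8 (SE 0.25), 9.55 for Lcn2 (SE 0.70), 9.26 for Ngp (SE 0.84), 9.19 for Camp (SE 0.92), 8.82 for Wfdc21 (SE 0.41), 8.62 for Cd177 (SE 0.47) and 8.42 for Ltf (SE 0.59). Camp did not pass without Cured replicate 2 (adjusted p = 0.0510 by edgeR) or with a gate of at least 3 UMIs (adjusted p = 0.0604 by edgeR).

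Other granule and maturation genes were also higher in neutrophils than in B cells, and as they were listed as neutrophil genes the same limit holds. Of the other specific granule genes 8 of 9 tested were called higher (median log2 fold change 6.05, with -0.34 over all genes), led by Hp, haptoglobin (8.99), Anxa1, annexin A1 (5.77), Pglyrp1 (4.04) and Ltb4r1, a leukotriene B4 receptor (8.62). Of the gelatinase granule and late genes 10 of 10 were called higher (median 9.90), led by Slpi (10.22), Ifitm1, an interferon-induced membrane protein (10.20), Stfa2l1, a stefin A family member (10.89), and Itgam, the integrin CD11b (7.26). Of the mature neutrophil genes 12 of 12 were called higher (median 9.43), led by Il1b (11.15), Clec4d, a C-type lectin receptor (10.81), Msrb1 (6.58) and Cd33, a sialic acid-binding lectin (11.22). All 4 cytosolic and surface genes were called higher, with Ly6g at 8.90, Padi4, a histone citrullinating enzyme, at 8.44, S100a9 at 10.91 and S100a8 at 11.06. Of 4 cell cycle genes tested, Cks2 was higher (3.31) while Tuba1b, an alpha tubulin (-1.33), and Tubb5 (-1.26) were lower in neutrophils.

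Values in T cells and monocytes differed between members. In T cells Mmp8 and Mmp9 had 0 UMIs in all 4 libraries, which allows up to 1.12% and 0.990% of Relapsed and 0.693% and 0.779% of Cured cells to carry one. Cd177 was found in 8.11% and 17.9% of Relapsed and 8.33% and 11.6% of Cured monocyte-gated barcodes, and Mmp8 in 13.5% and 4.76% against 4.17% and 12.8%. In gated neutrophils the Cd177 shares were lower in each library, at 4.62% and 3.05% of Relapsed and 5.74% and 6.83% of Cured barcodes. In B cells the shares were 0.0468% and 0% against 0.0362% and 0.0318% for Cd177 and 0.0468% and 0% against 0.0725% and 0.0636% for Mmp8. Monocyte-gated barcodes held a median of 3265.5 and 3617.5 UMIs in Relapsed and 2624.5 and 4100.5 in Cured libraries, more than B cells. After thinning Cd177 was found in 0% and 3.57% of Relapsed and 0% and 2.33% of Cured monocyte-gated barcodes. Gated neutrophils then had 1.28% and 1.22% against 2.39% and 4.39%, a lower share than monocyte-gated barcodes in Relapsed replicate 2 only. In Relapsed replicate 2 a single monocyte-gated barcode held all 531 Ngp UMIs of that class.

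In gated B cells, which should lack granule transcripts, the trio followed the pool. Ngp had 2 and 0 UMIs in Relapsed and 49 and 24 UMIs in Cured B cells, Camp 0 and 0 against 36 and 11, and Ltf 0 and 0 against 15 and 6. Lcn2 had 7 and 1 UMIs in Relapsed and 26 and 37 UMIs in Cured B cells. For each of these 4 genes both Relapsed pools lay below both Cured pools. How many of all genes had such an order in B cells was not counted, so it is not set apart from that of other genes. In Relapsed replicate 2, whose kept barcodes held 2003 Ngp UMIs, the most of any library, 0 of 3346 B cells had one, which allows a share of up to 0.0897%.

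The UMIs of the 2 Cured pools were spread in different ways. In Cured replicate 1, 4 B cells with at least 20 S100a8 and S100a9 UMIs held 45 of the 49 Ngp, 31 of the 36 Camp, 15 of the 15 Ltf and 21 of the 26 Lcn2 UMIs. Without such B cells Lcn2 had 7 and 1 UMIs in Relapsed and 5 and 24 in Cured pools, and Ltf 0 and 0 against 0 and 6. The order of the pools then held for Ngp (2 and 0 against 4 and 24) and Camp (0 and 0 against 5 and 11). It did not hold for Lcn2 and Ltf. In Cured replicate 2, 23 B cells held the 24 Ngp UMIs, of which 22 had exactly 1, and 11 B cells held 1 Camp UMI each. Its 2 B cells with at least 20 S100a8 and S100a9 UMIs had no Ngp UMI.

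Over all gated B cells, Wfdc21 and Retnlg did not have both Relapsed pools below both Cured pools. Wfdc21 had 12 and 27 UMIs in Relapsed and 7 and 49 UMIs in Cured B cells, with 28 of the 49 in 1 cell. Retnlg had 29 and 59 UMIs in Relapsed and 28 and 49 UMIs in Cured B cells, with 44 of the 59 in 1 cell of Relapsed replicate 2. Among the UMIs of the 9 genes in B cells, Ngp made up 3.57% and 0% in Relapsed and 29.9% and 13% in Cured, and Retnlg 51.8% and 67.8% against 17.1% and 26.5%. Without the B cells of at least 20 S100a8 and S100a9 UMIs, 4 in Cured replicate 1 and 2 in Cured replicate 2, the Cured values were 10.3% and 17.9% for Ngp and 51.3% and 12.7% for Retnlg, and the Relapsed values did not change. In gated neutrophils of the same pools Ngp made up 1.09% and 8.96% in Relapsed and 12.2% and 10.3% in Cured, and Retnlg 67.6% and 56.8% against 55.1% and 50.3%.

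**Figure D5:**
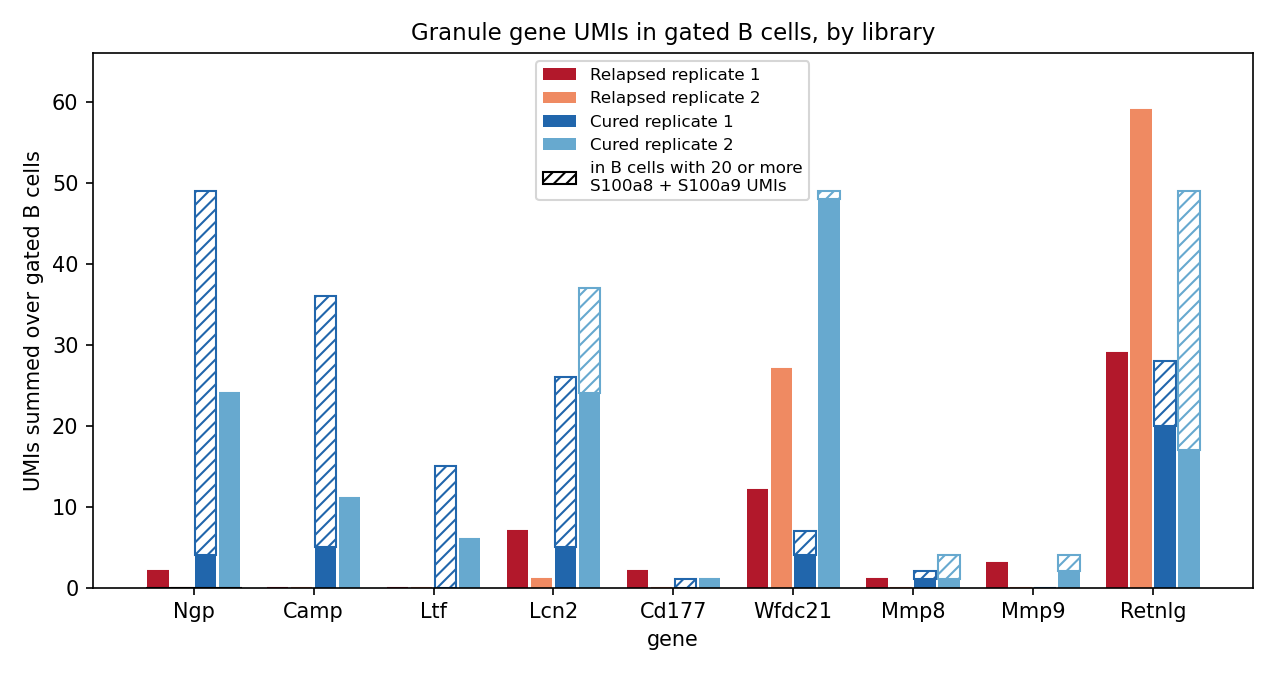
UMIs of the 9 genes summed over gated B cells in each library, Relapsed left of Cured, with hatching for UMIs in B cells that held at least 20 S100a8 and S100a9 UMIs. Ngp, Camp and Ltf reach 49, 36 and 15 UMIs in Cured replicate 1, mostly hatched, and 0 to 2 in the Relapsed libraries.

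By edgeR within B cells 0 of the 4 members with enough counts were called between Relapsed and Cured, where 0% of 10346 genes were called (897 at an unadjusted p under 0.05, and 12 called by DESeq2). Ngp had a log2 fold change of -4.78 (SE 0.90, unadjusted p = 0.000497, adjusted p = 0.429 by edgeR) and Lcn2 of -2.62 (SE 0.64, adjusted p = 0.551 by edgeR). Wfdc21 stood at -0.21 (SE 0.61) and Retnlg at 0.47 (SE 0.28). Without Cured replicate 1 Ngp (-3.99) and Lcn2 (-2.69) passed, without Cured replicate 2 Ngp (-5.32) and Camp (-8.10) passed, and with no count filter Ngp, Camp, Ltf and Lcn2 passed.

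Whether the Relapsed against Cured difference itself differed between neutrophils and B cells was tested by the interaction term of a fit that also held the library. It was called for 4 of the 9 members, where 0.305% of 9171 genes were called. Camp and Ltf had too few counts to be tested within B cells, so they entered this fit through their neutrophil counts. Ngp, Camp and Ltf also sat in the same few barcodes, so the 4 calls are not separate observations. The interaction was 6.54 for Camp (SE 0.92, adjusted p = 1.13e-08 by edgeR), 5.44 for Ltf (SE 1.20, adjusted p = 0.00429 by edgeR), 4.03 for Ngp (SE 0.67, adjusted p = 6.92e-06 by edgeR) and 2.51 for Lcn2 (SE 0.50, adjusted p = 0.000682 by edgeR). The other 5 were not called, at 2.16 for Mmp8 (SE 1.13), 0.47 for Wfdc21 (SE 0.41), 0.25 for Mmp9 (SE 0.97), -0.10 for Retnlg (SE 0.36) and -0.997 for Cd177 (SE 1.74). A positive value means that Relapsed over Cured was higher in neutrophils than in B cells. Camp and Ltf had 0 UMIs in B cells of both Relapsed pools, so the size of their values depends on the prior count of the fit. The SEs of the trio lay below those between Relapsed and Cured neutrophils alone, at 1.63 for Ngp, 1.83 for Camp and 1.89 for Ltf. The library terms of the fit can take up the spread between pools of a group, so these p-values do not measure it in full. None of the 4 was called by DESeq2 or without Relapsed replicate 2, Ltf was lost without Cured replicate 1 and Lcn2 without Cured replicate 2, and Camp alone was called with the B cells of many S100a8 and S100a9 UMIs left out (5.03, adjusted p = 0.00785 by edgeR).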

How the data were processed

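Gene by barcode tables of UMI counts were deposited by the authors, 1 per library, made with Cell Ranger 3.1.0 on mm10 per the submitters' processing notes. Of the annotation, the release is not given in the sources used here. Raw counts were analysed. Barcodes with at least 200 detected genes and at most 10% mitochondrial UMIs were kept, and each deposited barcode held at least 500 UMIs. Neutrophils had at least 2 UMIs of Csf3r and Cxcr2, and B cells at least 3 UMIs of their gate genes. No doublet caller was run. Gated barcodes with markers of another lineage, 10.4% to 14.6% per library, were left out as an alternative.

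Counts were summed per library and class and compared by edgeR 4.0.16 and its quasi-likelihood test (R 4.3.3; TMM factors, low counts filtered, Benjamini-Hochberg adjustment over all genes, threshold 0.05), with DESeq2 1.42.0 as an alternative, after a test on simulated data. Neutrophils against B cells and the interaction had the library as a block. Each SE was derived from its edgeR test, as the absolute log2 fold change over the square root of the F statistic. It thus holds no information beyond that test. Intervals are exact Clopper-Pearson at 95% and cover counting error only. A count of 0 allows up to 3 counts. Python 3.11.15 and scipy 1.17.1 were used. Of 32287 identifiers 32235 were found in GENCODE M21. All 9 genes were named in each comparison where they had enough counts to be tested. From each list, up to 4 genes past the test by smallest p were named, or else the 2 with the highest CPM. The members and lists were chosen with earlier results of these data known. The labels name no culture or animal beyond the pools of 3 mice. Replicate numbers are shared by the groups with no stated meaning.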

Additional observations from a re-analysis of the deposited data

Results flagged for a closer look

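The difference between Relapsed and Cured differed between gated neutrophils and gated B cells, by the interaction test of edgeR, for Ngp (4.03 on the log2 scale), Camp (6.54), Ltf (5.44) and Lcn2 (2.51). The part of single libraries in these values, and the limits of the test, are given with the test above.

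The 379 barcodes of Relapsed replicate 1 that failed the filters, and stood outside the comparisons above, held more UMIs of each of the 9 genes than those of either Cured library. Per barcode this did not hold for Cd177, which had 2 UMIs in the 148 left-out barcodes of Cured replicate 2. Ngp had 48 UMIs, Camp 90 and Ltf 16, in 1 barcode each. Lcn2 had 36 UMIs in 5 barcodes, Wfdc21 30 in 3, Mmp8 10 in 4, Mmp9 13 in 5 and Retnlg 65 in 10, and Cd177 had 4 UMIs in 1. The 112 barcodes left out of Relapsed replicate 2 held 3 UMIs of Retnlg and 0 of the other 8 genes. The 79 and 148 barcodes left out of the Cured libraries held 1 and 2 UMIs of Ngp, 0 and 4 of Camp and none of Retnlg. The left-out barcodes were also more numerous in Relapsed replicate 1, and the part of their number was not tested.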

How the results depend on the processing

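Between Relapsed and Cured neutrophils, where 0 members were called, the count was 0 to 3 with 1 library left out (3 without Relapsed replicate 2), the lone library of a group being assumed to vary like the others. Over all genes, where 1 was called, it was 0 by DESeq2, 13 with no count filter, 2 to 17 with 1 library left out, 2 with a gate of at least 1 UMI, and 0 with a gate of at least 3, without other-lineage barcodes or with the S100a8 and S100a9 gate. The replicate numbers did not pair the samples (correlation of deviations 0.0671 in neutrophils and 0.0289 in B cells), and with the number as a replicate block 2 members (Ngp -1.68, Camp -1.37) and 6 genes were called in neutrophils and 2 members in B cells. In B cells 4 members were called with no count filter and 0 to 2 with 1 library left out, and the adjusted p of each member was NA by DESeq2. The 4 interactions became 0 by DESeq2, 0 to 4 with 1 library left out, 1 with a gate of at least 3, 1 without B cells of at least 20 S100a8 and S100a9 UMIs, and 0 without those and the granule-rich neutrophils. The log2 ratio of the neutrophil share was -0.45 without Relapsed replicate 1, and -0.45 to 1.19 over the libraries left out.

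Of 121 member values between Relapsed and Cured neutrophils, 97 kept direction and call and 19 changed sign. With 1 library left out the ranges were -3.73 to 0.12 for Ngp, -3.92 to 0.71 for Camp, -4.42 to 0.74 for Ltf, -0.53 to 0.19 for Lcn2, -0.17 to 0.49 for Mmp8, -0.11 to 0.31 for Mmp9 and -0.0055 to 0.56 for Retnlg. A gate of at least 3 gave Ngp 1.16, Camp 0.96 and Lcn2 0.041, and the S100a8 and S100a9 gate Camp 0.41, Ltf 0.10 and Lcn2 0.13. Thinning gave Lcn2 0.16 and Mmp8 -0.038, a gate of at least 1 gave Mmp8 -0.035 and Mmp9 -0.034, and Mmp9 was -0.00076 without other-lineage barcodes. In B cells Wfdc21 ran from -0.93 to 1.55, and the Ngp interaction from -0.28 to 7.26, with 1 library left out. Of 62 values of neutrophils over B cells 60 kept direction and call. The S100a8 and S100a9 settings and those without granule-rich cells were chosen after seeing the data. The cause of these changes was not tested.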
